A study of Homo sapiens with 26 samples.

Results

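The genes described here encode ligands and receptors of the epidermal growth factor receptor (EGFR) family and ERRFI1, a feedback inhibitor of the receptors, in 786-O cells, a human clear cell renal carcinoma line. They were chosen by name, as 8 gene symbols: the ligands TGFA, AREG, EREG and HBEGF, the receptors EGFR, ERBB2 and ERBB3, and ERRFI1. Of these, 6 were listed in all 3 deposited tables, among 12239 genes listed in any table and 11524 listed in all 3. AREG and ERBB3 were not listed in the tables used here and were not analysed. All 6 listed genes passed the filter on low values (a mean of at least 10 in their table) in every table. Polyadenylated RNA was sequenced from 26 libraries after siRNA knockdown of genes that the series calls speckle protein genes, that is, genes for proteins of nuclear speckles, bodies that hold splicing factors. The 10 knockdown groups, each with 2 libraries, received siRNA 4 or 6 against SART1, siRNA 1 or 4 against DDX39A, siRNA 3 or 9 against SARNP, siRNA 6 or 7 against FIBP, or siRNA 5 or 6 against TMEM259, which the sample titles call C19orf6. The 3 control groups, also with 2 libraries each, received a non-targeting siRNA: 1 served SART1, 1 served both DDX39A and SARNP, and 1 served both FIBP and TMEM259. In the titles the control shared by DDX39A and SARNP is called NTC, and the others NEGsiRNA. Every group was of the same line, was transfected with DharmaFECT 1, was split at 24 h and was harvested at 48 h after transfection. The labels do not say whether a group's libraries were transfected separately, so the spread behind the p-values below may be technical. That spread is pooled over all groups of a table and drawn toward that of other genes. It is therefore not the spread of only the libraries compared.

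The EGFR family works as dimers. EGFR binds TGFA, HBEGF, EREG and other ligands that are made as membrane proteins and cut from the cell surface by ADAM proteases. ERBB2 binds no known ligand and acts as a dimer partner, and ERBB3 binds neuregulins but has little kinase activity of its own. Active receptors signal through the RAS and ERK cascade and through PI3-kinase and AKT, and ERRFI1 (also called MIG6) binds the kinase domain and dampens it. In clear cell renal carcinoma cells without VHL, of which 786-O is one, TGFA is known as a target of the hypoxia-inducible factor HIF-2 and as an autocrine ligand of EGFR.

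Start-site windows of 250 bases before and 50 bases after the annotated start were taken from RefSeq on GRCh38.p14, while the submitters' processing notes name hg19 for the deposited values, so these coordinates apply only to the RefSeq table. All 6 listed genes had a window, 8 windows in all, since TGFA and EGFR each have 2 starts. Windows of the 3 ligands are shown because their mRNAs moved furthest among the genes described here. The capitals mark 2 forms of the hypoxia-response core, spelled ACGTG in one form and spelled GCGTG in the other, and the TATA-box letters TATAAA. Each was searched on both strands, and a match on the other strand is shown as it reads on the printed strand. Positions are counted from the annotated start, negative before it.
TGFA, second start, chr2:70553397-70553696, minus strand: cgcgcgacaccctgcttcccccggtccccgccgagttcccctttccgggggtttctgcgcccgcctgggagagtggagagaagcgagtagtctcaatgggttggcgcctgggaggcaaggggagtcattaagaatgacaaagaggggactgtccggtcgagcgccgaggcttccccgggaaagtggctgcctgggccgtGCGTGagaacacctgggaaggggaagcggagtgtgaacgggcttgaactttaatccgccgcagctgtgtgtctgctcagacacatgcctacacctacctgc
EREG, chr4:74364895-74365194, plus strand: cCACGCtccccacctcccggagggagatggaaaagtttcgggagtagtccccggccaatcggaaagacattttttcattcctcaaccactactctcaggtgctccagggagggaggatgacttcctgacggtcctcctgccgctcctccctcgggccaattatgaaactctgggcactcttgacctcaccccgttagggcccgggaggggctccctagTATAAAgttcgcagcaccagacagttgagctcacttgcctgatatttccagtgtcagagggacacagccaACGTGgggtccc
HBEGF, chr5:140346554-140346853, minus strand: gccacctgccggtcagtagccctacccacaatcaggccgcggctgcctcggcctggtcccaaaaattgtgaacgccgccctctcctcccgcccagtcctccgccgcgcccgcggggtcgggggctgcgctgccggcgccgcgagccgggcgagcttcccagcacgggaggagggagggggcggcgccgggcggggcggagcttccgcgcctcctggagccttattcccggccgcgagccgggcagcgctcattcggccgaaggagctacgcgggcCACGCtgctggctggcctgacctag
The TGFA window held 1 GCGTG at position -51, and the window of the first TGFA start held no match. The EREG window held TATAAA at position -32, an other-strand GCGTG at position -249 and ACGTG at position 38. The HBEGF window held 1 other-strand GCGTG at position 25. Across 35116 windows of that RefSeq table, 21.4% held ACGTG, 36.5% held GCGTG and 11.5% held TATAAA, so these short runs of letters were common. The AP-1 letters TGANTCA, held by 7.71% of windows and searched in the same way, were found in the second EGFR window and in the ERBB2 window, and in no ligand window. That EGFR window also held TATAAA at positions -146 and -36. The ERRFI1 window held none of the 4 motifs. A match describes the letters of a window, not a bound site or a cause of any change below, and a window with no match says nothing about a factor.

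Values below are normalized counts, that is, the reads of a gene divided by 1 size factor for its library. The tables were normalized apart, so levels are compared within a table. Libraries of the SART1 table held 21710821 to 26128173 gene reads. Those of the table shared by DDX39A and SARNP held 9959064 to 18086176, and those of the table shared by FIBP and TMEM259 held 8966609 to 17018483. The 6 genes had between 211 reads (HBEGF) and 21851 reads (ERRFI1) in a library. The targeted mRNA was left at 33.3% (siRNA 4) and 26.8% (siRNA 6) of control for SART1. It was left at 14% (siRNA 1) and 16.5% (siRNA 4) for DDX39A, at 13.5% (siRNA 3) and 8.48% (siRNA 9) for SARNP, at 11% (siRNA 6) and 17.1% (siRNA 7) for FIBP, and at 30.3% (siRNA 5) and 48.3% (siRNA 6) for TMEM259. All 7 markers of the line (PAX8, PAX2, CDH6, EPAS1, VIM, KRT8 and KRT18) were listed in every table, at 93.59 to 156100 normalized counts. Of 6 markers of other cell types, 4 (PTPRC, CD3E, PECAM1 and CDH5) were not listed in the tables used here, while CD68 and COL1A1 lay between 24.36 and 403.6. In the FIBP and TMEM259 table PAX2 (93.59 to 133.7) lay below CD68 (141.8 to 258.8). A change was called when limma gave a Benjamini-Hochberg adjusted p below 0.05 over all tested genes of the table, two-sided. A log2 change is that of a knockdown group relative to the controls of its own table on the log2(value + 1) scale. In bulk RNA, fewer cells with an mRNA and less of it per cell cannot be told apart.

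Among control cells, ERRFI1 had the most reads per length and ERBB2 the fewest. Divided by exon length in kilobases, ERRFI1 had 3050 normalized counts per kilobase in the SART1 controls, 2290 in the DDX39A and SARNP controls and 1560 in the FIBP and TMEM259 controls. TGFA followed at 1310, 893 and 609 per kilobase in the same order of tables, and EREG at 1180, 667 and 537. HBEGF had 343, 261 and 171 per kilobase, EGFR 287, 235 and 144, and ERBB2 158, 88.2 and 75.2. The order of the 6 genes was the same in all 3 control groups, with all 3 ligands above the receptor EGFR per length. Lengths are of merged GENCODE exons on GRCh38, which may differ from the annotation the authors counted. Of the exon bases of EGFR, 1.64% overlap the antisense gene EGFR-AS1, of those of ERBB2, 3.43% overlap PGAP3 on the opposite strand, and of those of ERRFI1, 3.72% overlap AL034417.4 on the opposite strand. The counting strand is not given in the sources used here, so reads there cannot be told apart.

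TGFA, the high-affinity EGFR ligand on chromosome 2, rose with both siRNAs against SARNP and fell with both against FIBP, while the siRNAs against DDX39A moved it in opposite directions. In the DDX39A and SARNP table it had 3324 and 3673 with DDX39A siRNA 1 and 6274 and 6417 with DDX39A siRNA 4. TGFA had 8588 and 8327 with SARNP siRNA 3 and 7049 and 6860.1 with SARNP siRNA 9, against 4317 and 4248 in control cells. All 4 SARNP libraries lay above every DDX39A and control library. DDX39A siRNA 4 lay above the controls and DDX39A siRNA 1 below them, and no neighbouring groups in this order overlapped. TGFA rose at a log2 change of 0.98 (SE 0.04, adjusted p = 3.2e-20) with SARNP siRNA 3, a 1.97-fold higher level, and of 0.70 (SE 0.04, adjusted p = 2.4e-16) with SARNP siRNA 9. With DDX39A siRNA 1 the log2 change of TGFA was -0.29 (SE 0.04, adjusted p = 1.9e-06), and it was 0.57 (SE 0.04, adjusted p = 1.9e-13) with DDX39A siRNA 4. In the FIBP and TMEM259 table TGFA had 2005 and 2037.5 with FIBP siRNA 6 and 2126 and 1881 with FIBP siRNA 7. TGFA had 2505 and 2479 with TMEM259 siRNA 5 and 2921 and 2595 with TMEM259 siRNA 6, against 3041 and 2805 in control cells. From low to high the groups ran FIBP siRNA 7, FIBP siRNA 6, TMEM259 siRNA 5, TMEM259 siRNA 6 and control; the FIBP groups overlapped each other, and TMEM259 siRNA 6 overlapped the controls. TGFA fell with FIBP siRNA 6, with a log2 change of -0.53 (SE 0.05, adjusted p = 3.6e-11), and with FIBP siRNA 7, with -0.55 (SE 0.05, adjusted p = 8.8e-12). With TMEM259 siRNA 5 it fell too, with a log2 change of -0.23 (SE 0.05, adjusted p = 8.3e-04), a call that was lost when control replicate 1 was left out (adjusted p = 0.0702). TMEM259 siRNA 6 gave -0.09 (SE 0.05, adjusted p = 0.27). In the SART1 table it had 5417 and 5099 with SART1 siRNA 4, 5964 and 6035.5 with SART1 siRNA 6 and 6221 and 6333 in control cells. Both knockdown groups lay below the controls without overlap, but the log2 change passed the test with siRNA 4 at -0.26 (SE 0.04, adjusted p = 2.0e-06) and not with siRNA 6 at -0.07 (SE 0.04, adjusted p = 0.121). Quantile normalization in place of the size factors gave -0.22 with siRNA 6 (adjusted p = 4.4e-05).

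EREG, a ligand of EGFR and ERBB4 on chromosome 4, rose most with SART1 siRNA 4 and fell most with DDX39A siRNA 4. In the SART1 table it had 9006 and 9968 with SART1 siRNA 4, 5942.5 and 5821 with SART1 siRNA 6 and 5402 and 5456 in control cells. The siRNA 4 libraries stood far above all others, and the siRNA 6 libraries lay just above the controls. EREG rose at a log2 change of 0.80 (SE 0.04, adjusted p = 5.4e-14) with siRNA 4, 1.75-fold, and 0.12 (SE 0.04, adjusted p = 0.0138) with siRNA 6. The siRNA 6 value turned to -0.04 (adjusted p = 0.37) under quantile normalization. Leaving out control replicate 1 ended that call (adjusted p = 0.0541), as did leaving out siRNA 6 replicate 1 (adjusted p = 0.102). In the DDX39A and SARNP table EREG had 3805.5 and 3979 with DDX39A siRNA 1 and 1839.6 and 1909.6 with DDX39A siRNA 4. EREG had 3393 and 3062 with SARNP siRNA 3 and 2435 and 2349 with SARNP siRNA 9, against 3043 and 3118 in control cells. From high to low the order was DDX39A siRNA 1, SARNP siRNA 3, control, SARNP siRNA 9 and DDX39A siRNA 4, and SARNP siRNA 3 and control were the neighbours that overlapped. DDX39A siRNA 1 gave a log2 change of 0.34 (SE 0.05, adjusted p = 7.9e-07) and DDX39A siRNA 4 one of -0.72 (SE 0.05, adjusted p = 3.8e-15). With SARNP the log2 change was 0.07 (SE 0.05, adjusted p = 0.293) for siRNA 3 and -0.36 (SE 0.05, adjusted p = 4.3e-08) for siRNA 9. In the FIBP and TMEM259 table it had 3019.5 and 3037 with FIBP siRNA 6 and 2705 and 2624 with FIBP siRNA 7. EREG had 2006 and 2231 with TMEM259 siRNA 5 and 2525 and 2502 with TMEM259 siRNA 6, against 2441 and 2524 in control cells. FIBP siRNA 6 was highest, then FIBP siRNA 7, TMEM259 siRNA 6, control and TMEM259 siRNA 5, and TMEM259 siRNA 6 overlapped the controls. EREG rose with FIBP siRNA 6 at a log2 change of 0.29 (SE 0.05, adjusted p = 3.9e-06) and fell with TMEM259 siRNA 5 at -0.23 (SE 0.05, adjusted p = 1.5e-04). The values that did not pass the test were 0.10 (SE 0.05, adjusted p = 0.0805) with FIBP siRNA 7 and 0.02 (SE 0.05, adjusted p = 0.847) with TMEM259 siRNA 6.

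HBEGF, the heparin-binding ligand of EGFR and ERBB4 on chromosome 5, was called higher with 8 of the 10 siRNAs, lower with 1 and not called with 1, and it held the widest range of changes among the 6 genes. The 10 siRNAs share 3 control groups. How many of all tested genes were called that often in the same direction was not counted. In the SART1 table HBEGF had 1071 and 1097 with SART1 siRNA 4, 2149 and 2304 with SART1 siRNA 6 and 842 and 795 in control cells. No groups overlapped, and siRNA 6 stood well above siRNA 4, which stood above the controls. HBEGF rose at a log2 change of 0.41 (SE 0.05, adjusted p = 5.6e-07) with siRNA 4 and 1.44 (SE 0.05, adjusted p = 2.5e-16) with siRNA 6, and the siRNA 6 change was a 2.72-fold higher level. In the DDX39A and SARNP table HBEGF had 631 and 762 with DDX39A siRNA 1 and 695.5 and 736 with DDX39A siRNA 4. HBEGF had 255 and 222 with SARNP siRNA 3 and 1603 and 1611 with SARNP siRNA 9, against 594 and 649 in control cells. The SARNP siRNAs lay at opposite ends of this table: siRNA 9 was above every other library and siRNA 3 below every other, while both DDX39A groups overlapped each other and DDX39A siRNA 1 overlapped the controls. SARNP siRNA 3 gave a log2 change of -1.38 (SE 0.08, adjusted p = 1.3e-17), 2.61-fold lower, and SARNP siRNA 9 one of 1.37 (SE 0.08, adjusted p = 5.7e-18), 2.58-fold higher. The residual SARNP mRNA was low with both, at 13.5% of control with siRNA 3 and 8.48% with siRNA 9. With DDX39A the log2 change was 0.16 (SE 0.08, adjusted p = 0.107) for siRNA 1 and 0.20 (SE 0.08, adjusted p = 0.0252) for siRNA 4. The siRNA 4 call was lost under quantile normalization (adjusted p = 0.0548), in DESeq2 (adjusted p = 0.0891), and without control replicate 1 (adjusted p = 0.253) or siRNA 4 replicate 2 (adjusted p = 0.159). The siRNA 1 value was called without siRNA 1 replicate 1 (0.29, adjusted p = 0.00833).

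In the FIBP and TMEM259 table HBEGF had 466 and 491 with FIBP siRNA 6 and 511 and 535 with FIBP siRNA 7. HBEGF had 605 and 563 with TMEM259 siRNA 5 and 492 and 528 with TMEM259 siRNA 6, against 412 and 402 in control cells. All 8 knockdown libraries lay above both controls, with TMEM259 siRNA 5 highest, and FIBP siRNA 7 and TMEM259 siRNA 6 overlapped each other. HBEGF rose with TMEM259 siRNA 5 at a log2 change of 0.52 (SE 0.07, adjusted p = 5.3e-07) and with siRNA 6 at 0.32 (SE 0.07, adjusted p = 0.00111). It also rose with FIBP siRNA 6 at 0.23 (SE 0.07, adjusted p = 0.0172) and with FIBP siRNA 7 at 0.36 (SE 0.07, adjusted p = 1.2e-04). The FIBP siRNA 6 call was lost in DESeq2 (adjusted p = 0.112) and without control replicate 1 (adjusted p = 0.0575), control replicate 2 (adjusted p = 0.108) or FIBP siRNA 6 replicate 2 (adjusted p = 0.13). These 4 groups share 1 pair of controls, so their common direction is not 4 separate comparisons.

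**Figure D1:**
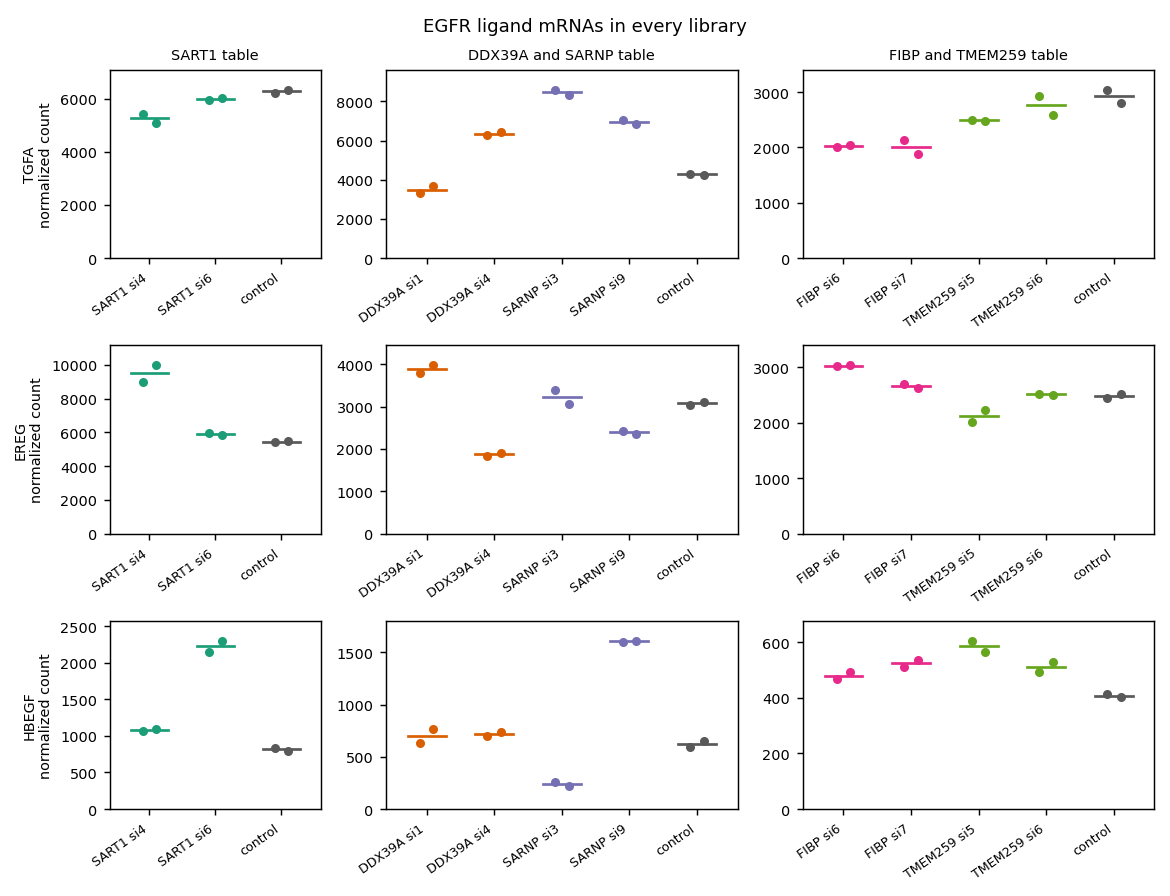
Normalized counts (vertical axes, from 0) of TGFA, EREG and HBEGF in every library, by group (horizontal axes) and table; points are libraries, bars are means of 2, and axes are not comparable between tables. SARNP siRNA 3 and siRNA 9 lie together above the controls for TGFA (197.5% of control with siRNA 3) and on opposite sides of them for HBEGF, at 254.6 and 221.7 with siRNA 3 and at 1603 and 1611 with siRNA 9, against 594 and 649 in controls.

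EGFR, the receptor of all 3 ligands, on chromosome 7, rose with both siRNAs against DDX39A and fell with SART1 siRNA 4, and its log2 changes, from -0.50 to 0.37, spanned a narrower range than those of each ligand. In the DDX39A and SARNP table it had 3254 and 3575 with DDX39A siRNA 1 and 3546 and 3369 with DDX39A siRNA 4. EGFR had 2873 and 3042 with SARNP siRNA 3 and 2465 and 2339.9 with SARNP siRNA 9, against 2719 and 2617.5 in control cells. Both DDX39A groups lay above all other libraries and overlapped each other, SARNP siRNA 3 lay between them and the controls, and SARNP siRNA 9 lay below the controls. The log2 change was 0.35 (SE 0.05, adjusted p = 3.8e-07) with DDX39A siRNA 1 and 0.37 (SE 0.05, adjusted p = 5.0e-08) with DDX39A siRNA 4. With SARNP it was 0.15 (SE 0.05, adjusted p = 0.014) for siRNA 3 and -0.15 (SE 0.05, adjusted p = 0.00812) for siRNA 9. Both SARNP calls rested on single libraries. The siRNA 3 call was lost without control replicate 2 (adjusted p = 0.14) or siRNA 3 replicate 2 (adjusted p = 0.185). The siRNA 9 call was lost without control replicate 1 (adjusted p = 0.0983) or siRNA 9 replicate 2 (adjusted p = 0.111). In the SART1 table EGFR had 2324 and 2276 with SART1 siRNA 4, 3171 and 3097 with SART1 siRNA 6 and 3215 and 3288 in control cells. The siRNA 4 libraries were lowest, and the siRNA 6 libraries lay just below the controls. EGFR fell at a log2 change of -0.50 (SE 0.04, adjusted p = 2.0e-10) with siRNA 4, 1.41-fold lower. With siRNA 6 the log2 change was -0.05 (SE 0.04, adjusted p = 0.248), where quantile normalization gave -0.17 (adjusted p = 0.00111). In the FIBP and TMEM259 table it had 1649 and 1624 with FIBP siRNA 6 and 1472 and 1425 with FIBP siRNA 7. EGFR had 1591 and 1845 with TMEM259 siRNA 5 and 1617 and 1652 with TMEM259 siRNA 6, against 1647 and 1615.5 in control cells. All groups but FIBP siRNA 7, which was lowest, overlapped the controls. FIBP siRNA 7 gave a log2 change of -0.17 (SE 0.05, adjusted p = 0.00979), lost in DESeq2 (adjusted p = 0.0607) and without control replicate 1 (adjusted p = 0.0791) or FIBP siRNA 7 replicate 2 (adjusted p = 0.0772). The other log2 changes of EGFR in this table were 0.00 (95% interval -0.10 to 0.11, adjusted p = 0.967) with FIBP siRNA 6, 0.07 (95% interval -0.04 to 0.18, adjusted p = 0.368) with TMEM259 siRNA 5 and 0.00 (95% interval -0.10 to 0.11, adjusted p = 0.978) with TMEM259 siRNA 6. The TMEM259 siRNA 5 libraries differed most, and without replicate 1 that value was 0.18 (adjusted p = 0.0329), without replicate 2 -0.04 (adjusted p = 0.758).

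ERBB2, the ligand-less partner receptor on chromosome 17, fell with both siRNAs against SART1. In the SART1 table it had 653 and 604 with SART1 siRNA 4, 614 and 621 with SART1 siRNA 6 and 935 and 857 in control cells. The knockdown groups overlapped each other and lay below both controls. ERBB2 fell at a log2 change of -0.51 (SE 0.06, adjusted p = 4.2e-07) with siRNA 4 and -0.53 (SE 0.06, adjusted p = 1.6e-07) with siRNA 6, 1.42-fold and 1.45-fold lower. In the DDX39A and SARNP table ERBB2 had 535 and 503 with DDX39A siRNA 1 and 672 and 693 with DDX39A siRNA 4. ERBB2 had 534 and 601 with SARNP siRNA 3 and 427 and 411 with SARNP siRNA 9, against 492 and 507 in control cells. DDX39A siRNA 4 was highest and SARNP siRNA 9 lowest, and DDX39A siRNA 1 overlapped both SARNP siRNA 3 and the controls. ERBB2 rose with DDX39A siRNA 4 at a log2 change of 0.45 (SE 0.07, adjusted p = 2.4e-06), while DDX39A siRNA 1 gave 0.05 (SE 0.07, adjusted p = 0.61). With SARNP the log2 change was 0.18 (SE 0.07, adjusted p = 0.0416) for siRNA 3 and -0.25 (SE 0.07, adjusted p = 0.00278) for siRNA 9. The siRNA 3 call was lost in DESeq2 (adjusted p = 0.175) and without control replicate 1 (adjusted p = 0.177), control replicate 2 (adjusted p = 0.081) or siRNA 3 replicate 2 (adjusted p = 0.438). In the FIBP and TMEM259 table ERBB2 had 371.5 and 395 with FIBP siRNA 6 and 375 and 406 with FIBP siRNA 7. ERBB2 had 535 and 607 with TMEM259 siRNA 5 and 445 and 433 with TMEM259 siRNA 6, against 446 and 405.5 in control cells. TMEM259 siRNA 5 stood above all other groups, and the other neighbours in the order overlapped. ERBB2 rose with TMEM259 siRNA 5, at a log2 change of 0.42 (SE 0.08, adjusted p = 8.9e-05). Its change was 0.05 (95% interval -0.12 to 0.21, adjusted p = 0.755) with TMEM259 siRNA 6, -0.15 (95% interval -0.31 to 0.01, adjusted p = 0.179) with FIBP siRNA 6 and -0.12 (95% interval -0.29 to 0.04, adjusted p = 0.245) with FIBP siRNA 7.

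ERRFI1, the kinase-domain inhibitor on chromosome 1, fell with 6 of the 10 siRNAs, rose with 2 and was not called with 2. Here too, the share of all tested genes called that often in the same direction was not counted. In the SART1 table ERRFI1 had 9610.5 and 8982 with SART1 siRNA 4, 10169 and 10452 with SART1 siRNA 6 and 12781 and 12696 in control cells. Neither knockdown group overlapped the controls or the other, and both lay below the controls. The log2 change was -0.46 (SE 0.03, adjusted p = 9.8e-11) with siRNA 4 and -0.31 (SE 0.03, adjusted p = 5.4e-08) with siRNA 6. In the FIBP and TMEM259 table it had 3765 and 3997 with FIBP siRNA 6 and 9027 and 8695 with FIBP siRNA 7. ERRFI1 had 4503 and 4797 with TMEM259 siRNA 5 and 6134 and 5877 with TMEM259 siRNA 6, against 6877 and 6158 in control cells. FIBP siRNA 6 was the lowest group and FIBP siRNA 7 the highest, with TMEM259 siRNA 5, TMEM259 siRNA 6 and control between them in rising order and no overlap between neighbours. FIBP siRNA 6 gave a log2 change of -0.75 (SE 0.04, adjusted p = 1.6e-18), 1.68-fold lower, and FIBP siRNA 7 one of 0.45 (SE 0.04, adjusted p = 1.0e-11), 1.36-fold higher. FIBP mRNA was left at 11% of control with siRNA 6 and 17.1% with siRNA 7. ERRFI1 fell with TMEM259 siRNA 5 at a log2 change of -0.49 (SE 0.04, adjusted p = 3.2e-12), and siRNA 6 gave -0.12 (SE 0.04, adjusted p = 0.0464). The siRNA 6 call was lost in DESeq2 (adjusted p = 0.127), with a replicate block (adjusted p = 0.0672), and without control replicate 1 (-0.04, adjusted p = 0.725), siRNA 6 replicate 1 (-0.15, adjusted p = 0.0609) or siRNA 6 replicate 2 (-0.09, adjusted p = 0.3). In the DDX39A and SARNP table ERRFI1 had 8997 and 9739 with DDX39A siRNA 1 and 5636.5 and 5877 with DDX39A siRNA 4. ERRFI1 had 9747 and 9752 with SARNP siRNA 3 and 14757 and 15108 with SARNP siRNA 9, against 9485 and 9649 in control cells. SARNP siRNA 9 was far above and DDX39A siRNA 4 far below the rest, DDX39A siRNA 1 overlapped the controls, and SARNP siRNA 3 lay just above them. ERRFI1 rose with SARNP siRNA 9 at a log2 change of 0.64 (SE 0.04, adjusted p = 6.3e-16) and fell with DDX39A siRNA 4 at -0.73 (SE 0.04, adjusted p = 3.2e-17). The log2 change was 0.03 (95% interval -0.06 to 0.11, adjusted p = 0.638) with SARNP siRNA 3, which quantile normalization moved to 0.10 (adjusted p = 0.0409), and -0.03 (95% interval -0.12 to 0.05, adjusted p = 0.606) with DDX39A siRNA 1.

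**Figure D2:**
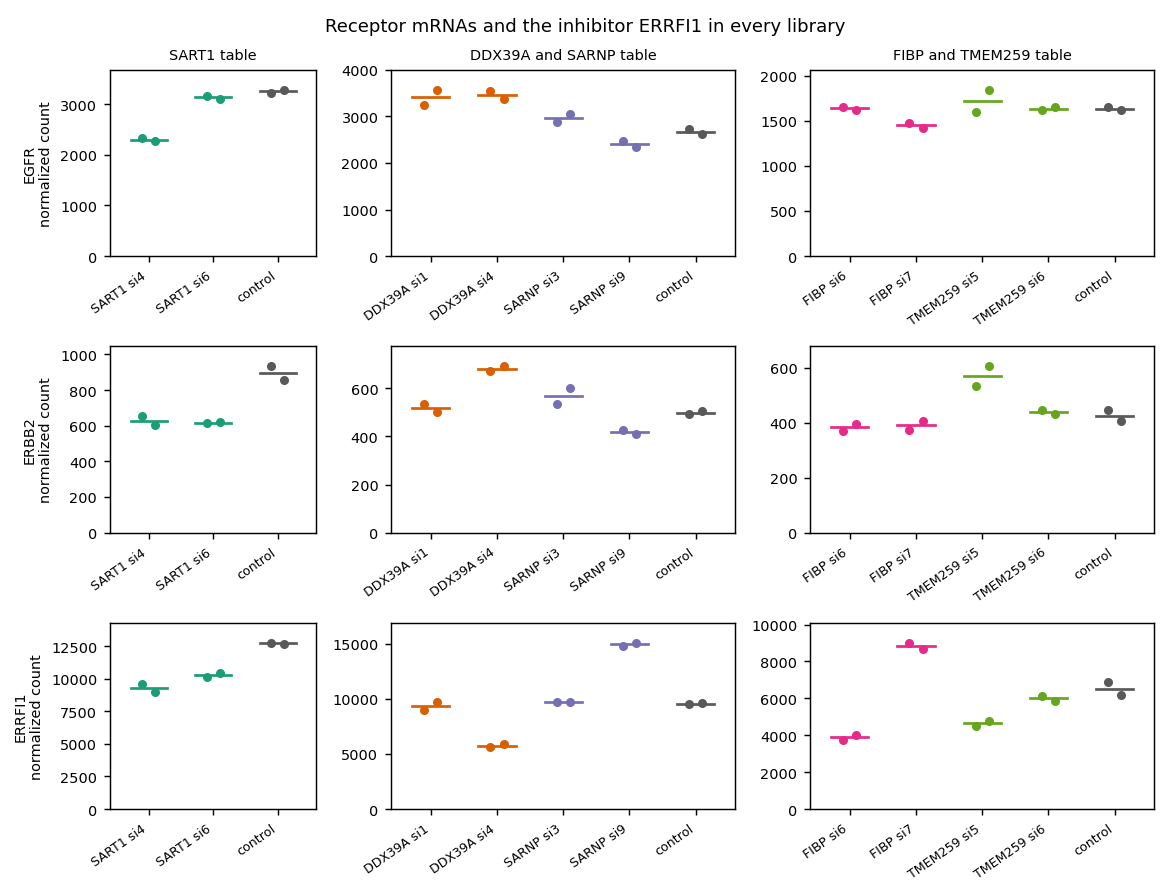
Normalized counts (vertical axes, from 0) of EGFR, ERBB2 and ERRFI1 in every library, by group (horizontal axes) and table; points are libraries, bars are means of 2, and axes are not comparable between tables. ERBB2 lies lower with both SART1 siRNAs than in controls, and ERRFI1 lies below the controls with FIBP siRNA 6 (3765 and 3997) and above them with FIBP siRNA 7 (9027 and 8695), against 6877 and 6158 in controls.

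Counted by knockdown, all 6 genes were called with SART1 siRNA 4 (57.7% of all tested genes were called there) and 4 of 6 with SART1 siRNA 6 (62.9%). With DDX39A, 3 of 6 were called with siRNA 1 (33.2%) and 6 of 6 with siRNA 4 (49%). With SARNP, 4 of 6 were called with siRNA 3 (41.3%) and 6 of 6 with siRNA 9 (58.4%). With FIBP, 4 of 6 were called with siRNA 6 (22.6%) and 4 of 6 with siRNA 7 (34.1%). With TMEM259, 5 of 6 were called with siRNA 5 (22.8%) and 2 of 6 with siRNA 6 (19.4%). These backgrounds run over genes of all levels, and the 6 genes here have at least 211 reads in every library. The median size of the log2 change of the 6 genes was above that of all tested genes with 7 of the 10 siRNAs and below it with 3. It was 0.48 with SART1 siRNA 4 against 0.22 over all tested genes, 0.51 with DDX39A siRNA 4 against 0.21, and 0.50 with SARNP siRNA 9 against 0.26. With DDX39A siRNA 1 it was 0.23 against 0.15, with FIBP siRNA 6 0.26 against 0.13, with FIBP siRNA 7 0.27 against 0.16, and with TMEM259 siRNA 5 0.33 against 0.13. With SART1 siRNA 6 it was 0.21 against 0.25 over all tested genes, with SARNP siRNA 3 0.16 against 0.18, and with TMEM259 siRNA 6 0.07 against 0.12.

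The 2 siRNAs of a target share their controls, and a call by both with the same sign was counted as follows. With SART1, EREG and HBEGF were called higher by both (22.9% of tested genes were called higher by both), and ERBB2 and ERRFI1 lower by both (20%). Under quantile normalization, HBEGF was called higher by both SART1 siRNAs, and TGFA, EGFR, ERBB2 and ERRFI1 lower by both, so that the 2 higher and 2 lower became 1 higher and 4 lower. With DDX39A, EGFR was called higher by both (8.67%), and none of the 6 lower by both (6.37%). With SARNP, TGFA was called higher by both (7.17%), and none lower by both (7.15%). With FIBP, HBEGF was called higher by both (4.68%) and TGFA lower by both (4.39%). With TMEM259, HBEGF was called higher by both (2.56%) and ERRFI1 lower by both (2.41%). Calls in opposite directions by the siRNAs of a target came to TGFA and EREG with DDX39A (5.16% of tested genes), to HBEGF, EGFR and ERBB2 with SARNP (13%), and to ERRFI1 with FIBP (2.5%). None of the 6 genes was called in opposite directions with SART1 (2.42%) or TMEM259 (2.17%). Each of these counts of 0 from limma was also 0 at an unadjusted p under 0.05, in edgeR and in DESeq2.

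**Figure D3:**
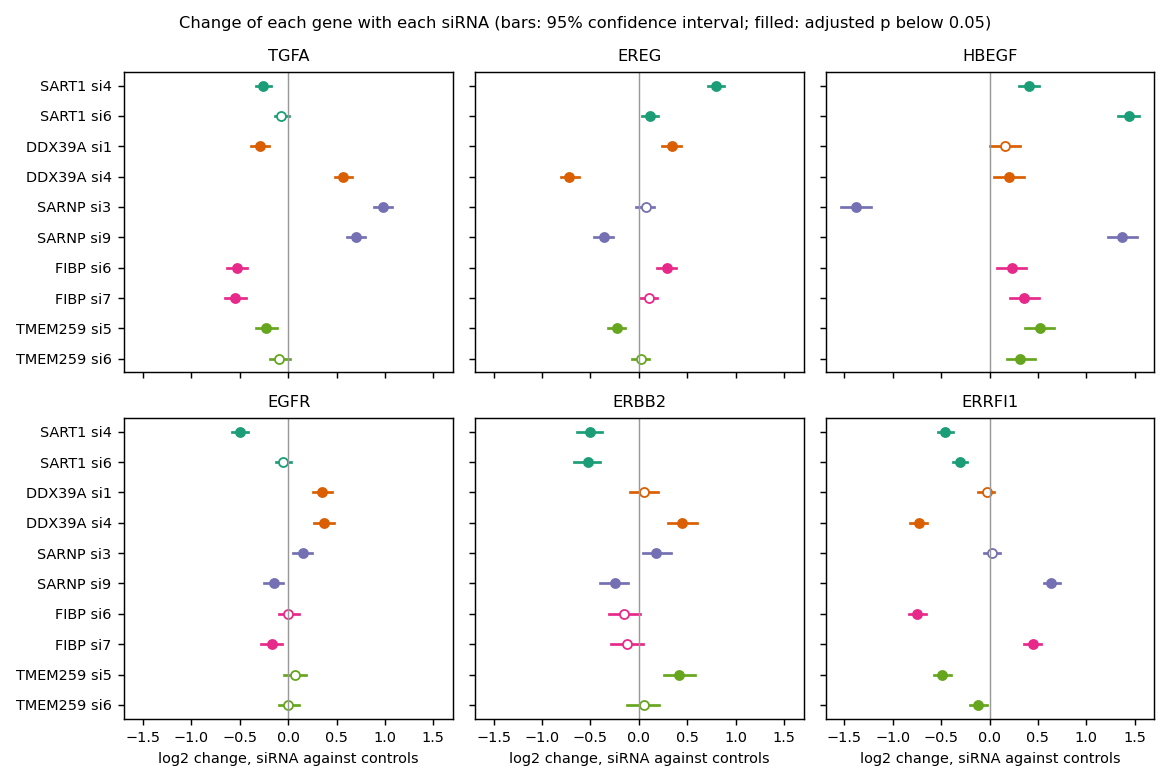
Log2 change (horizontal axes) of each gene with each siRNA against its own controls, on the log2(value + 1) scale; bars are 95% confidence intervals of the limma fit, and filled points were called at an adjusted p below 0.05. HBEGF lies right of 0 with every siRNA but SARNP siRNA 3 (-1.38), and no gene lies on 1 side of 0 with all 10 siRNAs.

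The difference between the siRNAs of a target was tested directly, as the later-numbered minus the earlier-numbered siRNA. With SARNP, all 6 genes differed between siRNA 9 and siRNA 3 (64.1% of tested genes did). HBEGF differed most, at a log2 difference of 2.75 (95% interval 2.60 to 2.91, adjusted p = 1.7e-27), a 6.74-fold higher level with siRNA 9. The differences of the other 5 were 0.61 (95% interval 0.53 to 0.70, adjusted p = 1.3e-15) for ERRFI1, -0.44 (95% interval -0.58 to -0.29, adjusted p = 2.1e-06) for ERBB2, -0.43 (95% interval -0.53 to -0.33, adjusted p = 7.6e-10) for EREG, -0.30 (95% interval -0.40 to -0.20, adjusted p = 1.7e-06) for EGFR and -0.28 (95% interval -0.37 to -0.19, adjusted p = 8.0e-07) for TGFA. TGFA was thus above its controls with both SARNP siRNAs and higher with siRNA 3 than with siRNA 9. With DDX39A, 4 of 6 differed between siRNA 4 and siRNA 1 (50.6%). EREG was lower with siRNA 4 at -1.05 (95% interval -1.15 to -0.96, adjusted p = 4.0e-20) and ERRFI1 at -0.70 (95% interval -0.79 to -0.62, adjusted p = 1.1e-16), while TGFA was higher at 0.86 (95% interval 0.77 to 0.95, adjusted p = 1.1e-18) and ERBB2 at 0.40 (95% interval 0.25 to 0.54, adjusted p = 1.8e-05). The receptor EGFR, at 0.02 (95% interval -0.08 to 0.12, adjusted p = 0.774), and HBEGF, at 0.05 (95% interval -0.11 to 0.20, adjusted p = 0.653), did not pass this test.

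With SART1, 5 of 6 genes differed between siRNA 6 and siRNA 4 (38.5%). HBEGF was higher with siRNA 6 at 1.04 (95% interval 0.93 to 1.15, adjusted p = 1.5e-13) and EREG lower at -0.69 (95% interval -0.77 to -0.61, adjusted p = 1.6e-12), so siRNA 6 gave the larger rise of HBEGF and siRNA 4 that of EREG. EGFR was higher with siRNA 6 at 0.45 (95% interval 0.36 to 0.53, adjusted p = 3.4e-09), TGFA at 0.19 (95% interval 0.12 to 0.27, adjusted p = 1.8e-04) and ERRFI1 at 0.15 (95% interval 0.08 to 0.22, adjusted p = 0.00129), the last of which was 0.07 (adjusted p = 0.147) under quantile normalization. ERBB2 gave -0.03 (95% interval -0.16 to 0.11, adjusted p = 0.795). With FIBP, 3 of 6 differed between siRNA 7 and siRNA 6 (35.7%). ERRFI1 was higher with siRNA 7 at 1.19 (95% interval 1.11 to 1.28, adjusted p = 1.6e-26), 2.28-fold, EREG lower at -0.18 (95% interval -0.28 to -0.09, adjusted p = 0.00116) and EGFR lower at -0.18 (95% interval -0.28 to -0.07, adjusted p = 0.00757). The EGFR difference was lost without FIBP siRNA 6 replicate 1 (adjusted p = 0.0546) or siRNA 7 replicate 2 (adjusted p = 0.0639). TGFA at -0.02 (95% interval -0.12 to 0.09, adjusted p = 0.845), HBEGF at 0.13 (95% interval -0.02 to 0.28, adjusted p = 0.174) and ERBB2 at 0.03 (95% interval -0.13 to 0.19, adjusted p = 0.827) did not pass. With TMEM259, 5 of 6 differed between siRNA 6 and siRNA 5 (32.1%). ERRFI1 was higher with siRNA 6 at 0.37 (95% interval 0.28 to 0.45, adjusted p = 2.5e-09) and EREG at 0.25 (95% interval 0.16 to 0.34, adjusted p = 2.9e-05), while ERBB2 was lower at -0.37 (95% interval -0.54 to -0.21, adjusted p = 2.6e-04). TGFA gave 0.14 (95% interval 0.04 to 0.25, adjusted p = 0.0284) and HBEGF -0.20 (95% interval -0.34 to -0.05, adjusted p = 0.0368), which are calls that did not hold under other settings. That of TGFA was lost under quantile normalization (adjusted p = 0.0821), in DESeq2 (adjusted p = 0.102), and without TMEM259 siRNA 5 replicate 1 (adjusted p = 0.0834), siRNA 5 replicate 2 (adjusted p = 0.123) or siRNA 6 replicate 1 (adjusted p = 0.554). That of HBEGF was lost under quantile normalization (adjusted p = 0.066), in DESeq2 (adjusted p = 0.131), and without TMEM259 siRNA 5 replicate 1 (adjusted p = 0.266) or siRNA 6 replicate 1 (adjusted p = 0.288). EGFR gave -0.07 (95% interval -0.17 to 0.04, adjusted p = 0.356). TMEM259 siRNA 6 left more of its target mRNA (48.3%) than siRNA 5 (30.3%), and the part of this in the smaller changes with siRNA 6 was not tested.

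**Figure D4:**
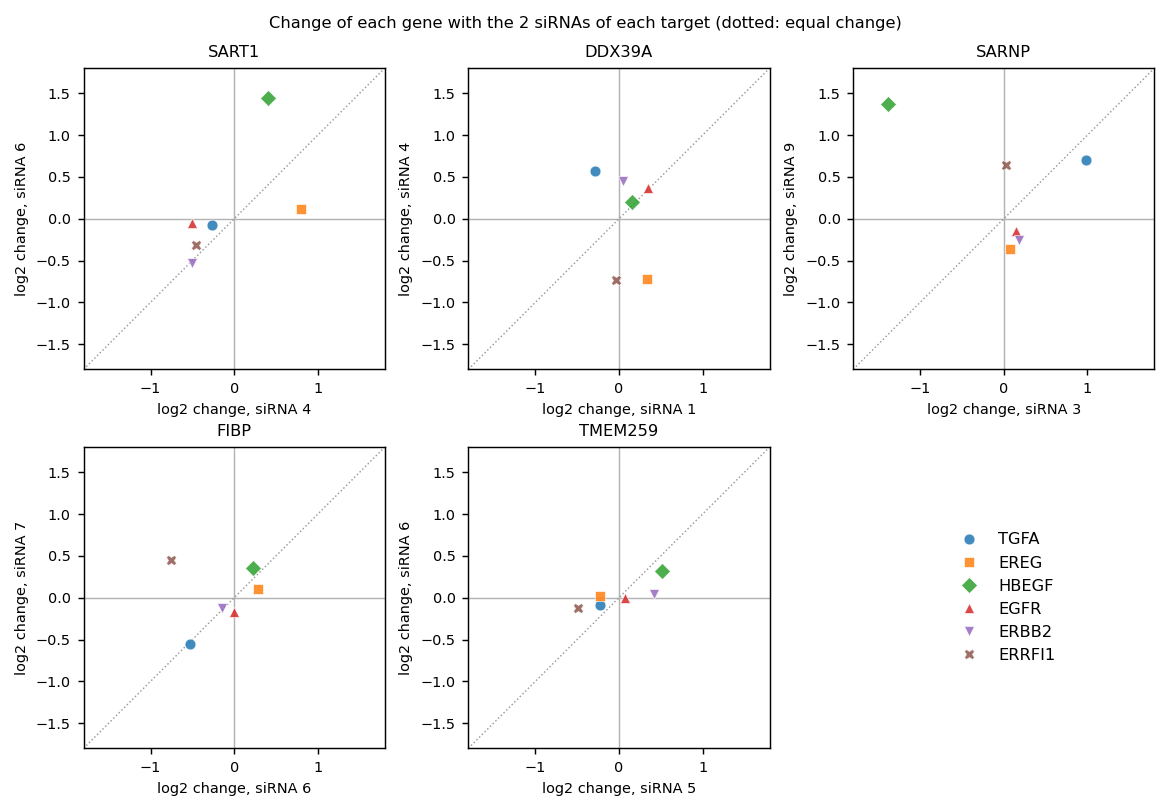
Log2 change of each gene with the later-numbered siRNA of a target (vertical axes) against that with the earlier-numbered siRNA (horizontal axes), 1 panel per target; both changes use the same controls, and the dotted line marks equal change. HBEGF with SARNP (-1.38 with siRNA 3, 1.37 with siRNA 9) and ERRFI1 with FIBP (-0.75 with siRNA 6, 0.45 with siRNA 7) lie in the upper left, where the siRNAs of a target moved a gene in opposite directions.

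Targets that share a table could be compared directly, as the mean of both siRNAs of one minus that of the other. The intervals and p-values here rest on the spread of libraries within groups, not on that between the siRNAs of a target. Between SARNP and DDX39A knockdown, 5 of 6 genes differed (53.6% of tested genes did). TGFA was higher with SARNP knockdown at 0.70 (95% interval 0.64 to 0.77, adjusted p = 8.2e-21) and ERRFI1 at 0.72 (95% interval 0.66 to 0.78, adjusted p = 9.1e-22). The ERRFI1 value came from SARNP siRNA 9 (0.64 against controls) and DDX39A siRNA 4 (-0.73). With SARNP siRNA 3 (0.03) and DDX39A siRNA 1 (-0.03) ERRFI1 was not called. EGFR was lower with SARNP knockdown at -0.37 (95% interval -0.44 to -0.30, adjusted p = 1.9e-11), ERBB2 at -0.29 (95% interval -0.39 to -0.18, adjusted p = 9.4e-06) and HBEGF at -0.19 (95% interval -0.30 to -0.08, adjusted p = 0.00342), while EREG gave 0.04 (95% interval -0.03 to 0.11, adjusted p = 0.337). For HBEGF, EGFR and ERBB2 this mean joins SARNP siRNAs called in opposite directions. For TGFA and EREG it joins DDX39A siRNAs called in opposite directions. The EREG value of 0.04 thus averages DDX39A changes of 0.34 with siRNA 1 and -0.72 with siRNA 4. The HBEGF call was lost without DDX39A siRNA 1 replicate 2 (-0.12). Between TMEM259 and FIBP knockdown, 5 of 6 differed (37.1%). TGFA was higher with TMEM259 knockdown at 0.38 (95% interval 0.31 to 0.45, adjusted p = 1.4e-11), ERBB2 at 0.37 (95% interval 0.26 to 0.49, adjusted p = 9.1e-07) and EGFR at 0.12 (95% interval 0.04 to 0.20, adjusted p = 0.00928), and the EGFR call was lost without TMEM259 siRNA 5 replicate 2 (adjusted p = 0.184). EREG was lower with TMEM259 knockdown at -0.30 (95% interval -0.37 to -0.24, adjusted p = 2.9e-10) and ERRFI1 at -0.15 (95% interval -0.21 to -0.09, adjusted p = 7.6e-05), where the ERRFI1 mean for FIBP again joins siRNAs of opposite direction. HBEGF gave 0.13 (95% interval 0.02 to 0.23, adjusted p = 0.0537), and passed with a minimum mean of 50 (adjusted p = 0.0495), under quantile normalization (adjusted p = 0.0481) and in edgeR (adjusted p = 0.0365). SART1 was in a table of its own and could not be tested against the other targets.

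Other genes of the pathway were counted from lists of textbook members. The lists were chosen with earlier results of these data known, so the counts are not independent of those results. Genes called by both siRNAs of a target with the same sign were counted. These counts are to be read against the shares of all tested genes given above. Of 8 other ErbB ligands and receptors, 3 were tested in the DDX39A and SARNP table and 2 in each of the others, and BTC, EPGN, NRG3, NRG4 and ERBB4 were not listed. The member called was NRG1, a ligand of ERBB3 and ERBB4. NRG1 rose with SART1 knockdown, with a log2 change of 0.30 (SE 0.04, adjusted p = 2.4e-06) with siRNA 4 and 0.30 (SE 0.04, adjusted p = 2.3e-06) with siRNA 6. NRG1 fell with DDX39A knockdown, at -0.29 (SE 0.06, adjusted p = 8.1e-05) with siRNA 1 and -0.54 (SE 0.06, adjusted p = 3.5e-10) with siRNA 4. It also fell with SARNP knockdown, at -0.19 (SE 0.06, adjusted p = 0.00624) with siRNA 3 and -0.94 (SE 0.06, adjusted p = 4.7e-17) with siRNA 9, and with TMEM259 knockdown, at -0.33 (SE 0.06, adjusted p = 1.4e-05) with siRNA 5 and -0.28 (SE 0.06, adjusted p = 2.0e-04) with siRNA 6. The FIBP siRNAs moved NRG1 in opposite directions, at 0.18 (SE 0.06, adjusted p = 0.0136) with siRNA 6 and -0.30 (SE 0.06, adjusted p = 2.8e-05) with siRNA 7. Of 8 genes of ligand shedding and trafficking, 7 were tested in each table and TIMP3 was not listed. Of these 7, 2 rose and 2 fell with SART1 (22.9% and 20% of all tested genes did). With DDX39A 3 rose and 1 fell (8.67% and 6.37%), and with FIBP 1 rose (4.68%). With SARNP or TMEM259, 0 were called by both siRNAs with the same sign in limma, edgeR or DESeq2 (1 rose with TMEM259 at an unadjusted limma p under 0.05). ADAM17, the main sheddase of TGFA, HBEGF and EREG, rose with SART1 knockdown, at 0.69 (SE 0.04, adjusted p = 1.8e-12) with siRNA 4 and 0.78 (SE 0.04, adjusted p = 2.3e-13) with siRNA 6. ADAM17 also rose with DDX39A knockdown, at 0.32 (SE 0.06, adjusted p = 4.1e-05) with siRNA 1 and 0.27 (SE 0.06, adjusted p = 1.8e-04) with siRNA 4, and with FIBP knockdown, at 0.33 (SE 0.06, adjusted p = 3.1e-05) with siRNA 6 and 0.34 (SE 0.06, adjusted p = 7.4e-06) with siRNA 7. ADAM10, another membrane protease, rose with SART1 knockdown at 0.37 (SE 0.03, adjusted p = 1.5e-09) with siRNA 4 and 0.53 (SE 0.03, adjusted p = 2.5e-12) with siRNA 6. It was called in opposite directions by the siRNAs against DDX39A, at 0.12 (SE 0.04, adjusted p = 0.0238) with siRNA 1 and -0.36 (SE 0.04, adjusted p = 8.9e-09) with siRNA 4, and by those against SARNP, at 0.24 (SE 0.04, adjusted p = 2.9e-05) with siRNA 3 and -0.34 (SE 0.04, adjusted p = 2.3e-08) with siRNA 9. Of the 7 genes, 1 was called in opposite directions with DDX39A (5.16% of all tested genes were), 2 with SARNP (13%) and 1 with TMEM259 (2.17%). RHBDF1, an inactive rhomboid that helps ADAM17 mature, rose with DDX39A knockdown at 0.49 (SE 0.10, adjusted p = 9.5e-05) with siRNA 1 and 0.65 (SE 0.10, adjusted p = 4.5e-07) with siRNA 4. The genes of this list that fell with both siRNAs of a target are not named here. The list's median log2 change lay between -0.17 and 0.19 with every siRNA. It was -0.15 with SART1 siRNA 4 and -0.06 with SART1 siRNA 6.

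Of 17 genes of receptor turnover and inhibition, all tested, 5 rose and 1 fell with SART1 (22.9% and 20% of all tested genes did). With DDX39A 3 rose and 1 fell (8.67% and 6.37%), and with SARNP 2 rose and 1 fell (7.17% and 7.15%). With FIBP 3 rose (4.68%), and with TMEM259 2 rose and 1 fell (2.56% and 2.41%). RIN1, a RAS effector that promotes endocytosis of EGFR, rose with SARNP knockdown, with a log2 change of 1.10 (SE 0.10, adjusted p = 1.4e-11) with siRNA 3 and 1.16 (SE 0.10, adjusted p = 1.2e-12) with siRNA 9. RIN1 also rose with DDX39A knockdown, at 0.56 (SE 0.10, adjusted p = 2.8e-05) with siRNA 1 and 0.83 (SE 0.10, adjusted p = 8.2e-09) with siRNA 4, and with FIBP knockdown, at 0.52 (SE 0.12, adjusted p = 6.5e-04) with siRNA 6 and 0.79 (SE 0.12, adjusted p = 3.9e-07) with siRNA 7. USP8, a deubiquitinase of endosomal sorting, rose with SART1 knockdown at 0.39 (SE 0.05, adjusted p = 2.0e-07) with siRNA 4 and 0.35 (SE 0.05, adjusted p = 7.4e-07) with siRNA 6. USP8 fell with DDX39A knockdown at -0.22 (SE 0.07, adjusted p = 0.0137) with siRNA 1 and -0.62 (SE 0.07, adjusted p = 3.5e-09) with siRNA 4. PTPRJ, a receptor phosphatase that acts on EGFR, rose with SART1 knockdown at 0.46 (SE 0.05, adjusted p = 3.0e-08) with siRNA 4 and 0.51 (SE 0.05, adjusted p = 3.7e-09) with siRNA 6. The SARNP siRNAs moved PTPRJ in opposite directions, at 0.27 (SE 0.05, adjusted p = 7.0e-05) with siRNA 3 and -0.24 (SE 0.05, adjusted p = 2.2e-04) with siRNA 9. It was 1 of 3 genes of this list called so with SARNP (13% of all tested genes were), beside 1 gene with DDX39A (5.16%). LRIG1, a membrane protein that lowers ErbB receptor levels, fell with TMEM259 knockdown at -0.41 (SE 0.14, adjusted p = 0.0286) with siRNA 5 and -0.44 (SE 0.14, adjusted p = 0.0202) with siRNA 6. The list's median log2 change lay between -0.01 and 0.08 with every siRNA, against -0.01 to 0.00 over all tested genes.

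Of 25 adaptors and signalling enzymes, all tested, 9 rose and 4 fell with SART1 (22.9% and 20% of all tested genes did). With DDX39A 3 rose (8.67%), and with SARNP 2 rose and 1 fell (7.17% and 7.15%). With FIBP 2 fell (4.39%), and with TMEM259 3 rose (2.56%). GRB2, the adaptor that links active receptors to RAS, rose with SARNP knockdown at 0.50 (SE 0.05, adjusted p = 1.7e-11) with siRNA 3 and 0.67 (SE 0.05, adjusted p = 2.3e-15) with siRNA 9. GRB2 also rose with SART1 knockdown at 0.57 (SE 0.04, adjusted p = 7.0e-12) with siRNA 4 and 0.50 (SE 0.04, adjusted p = 6.5e-11) with siRNA 6, and with TMEM259 knockdown at 0.28 (SE 0.05, adjusted p = 1.9e-05) with siRNA 5 and 0.44 (SE 0.05, adjusted p = 3.1e-09) with siRNA 6. The FIBP siRNAs moved GRB2 in opposite directions, at -0.71 (SE 0.05, adjusted p = 6.5e-16) with siRNA 6 and 0.38 (SE 0.05, adjusted p = 1.7e-08) with siRNA 7. Opposite calls in this list numbered 3 with FIBP (2.5% of all tested genes), 4 with DDX39A (5.16%) and 2 with SARNP (13%). PLCG1, the phospholipase that binds active EGFR, fell with SART1 knockdown at -0.50 (SE 0.05, adjusted p = 1.5e-08) with siRNA 4 and -0.45 (SE 0.05, adjusted p = 5.8e-08) with siRNA 6.

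Of 17 genes that ERK signalling is known to raise, 9 of 16 tested rose with SART1 (22.9% of all tested genes did). There 1 fell only in edgeR and at an unadjusted limma p under 0.05. With DDX39A 4 of 17 rose (8.67%), and with SARNP 5 of 17 rose (7.17%). With FIBP 5 of 14 rose (4.68%) and 1 fell (4.39%), and with TMEM259 1 of 14 rose (2.56%) and 1 fell (2.41%). The list's median log2 change was 0.39 with SART1 siRNA 4 and 0.31 with siRNA 6, 0.16 with DDX39A siRNA 1 and 0.22 with siRNA 4. It was 0.15 with SARNP siRNA 3 and 0.66 with siRNA 9, 0.16 with FIBP siRNA 6 and 0.40 with siRNA 7, and -0.10 with TMEM259 siRNA 5 and 0.09 with siRNA 6. Over all tested genes these medians were between -0.01 and 0.00. DUSP5, a nuclear ERK phosphatase, rose with SART1 knockdown at 1.78 (SE 0.08, adjusted p = 1.1e-14) with siRNA 4 and 0.75 (SE 0.08, adjusted p = 1.9e-08) with siRNA 6. DUSP5 also rose with FIBP knockdown at 0.98 (SE 0.13, adjusted p = 1.5e-07) with siRNA 6 and 1.78 (SE 0.13, adjusted p = 6.7e-15) with siRNA 7. The SARNP siRNAs moved DUSP5 in opposite directions, at -0.66 (SE 0.09, adjusted p = 3.0e-07) with siRNA 3 and 2.45 (SE 0.09, adjusted p = 5.1e-23) with siRNA 9. Opposite calls in this list numbered 3 with SARNP (13% of all tested genes), 1 with FIBP (2.5%) and 1 with TMEM259 (2.17%). SPRY2, a feedback inhibitor of RAS signalling, rose with SART1 knockdown at 0.93 (SE 0.10, adjusted p = 5.1e-08) with siRNA 4 and 0.64 (SE 0.10, adjusted p = 1.0e-05) with siRNA 6. DUSP6, the cytoplasmic ERK phosphatase, rose with SARNP knockdown at 0.71 (SE 0.14, adjusted p = 1.2e-04) with siRNA 3 and 1.02 (SE 0.14, adjusted p = 1.4e-07) with siRNA 9. EPHA4, an ephrin receptor, rose with DDX39A knockdown at 0.73 (SE 0.13, adjusted p = 1.7e-05) with siRNA 1 and 1.06 (SE 0.13, adjusted p = 6.0e-09) with siRNA 4. It rose too with TMEM259 knockdown at 0.66 (SE 0.15, adjusted p = 0.00115) with siRNA 5 and 0.47 (SE 0.15, adjusted p = 0.0238) with siRNA 6. CCND1, the G1 cyclin, fell with TMEM259 knockdown at -0.49 (SE 0.04, adjusted p = 1.6e-12) with siRNA 5 and -0.27 (SE 0.04, adjusted p = 3.0e-06) with siRNA 6. These are mRNA levels, and receptor or ERK activity was not measured.

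The genes whose levels ran most like each member were found by Pearson correlation over the 26 libraries, each gene centred within its table, among 9990 genes. The libraries share groups, controls and tables, so the correlations describe these libraries only. HBEGF ran most like SLC35F2 (r = 0.98), then IFFO2 (0.92) and POLDIP3 (0.91). TGFA ran most like HOXD9 (0.83), RASSF5 (0.82) and FKBP7 (0.77), and EREG most like TP53BP1 (0.84), RBKS (0.82) and TMF1 (0.81). EGFR ran most like LITAF and LFNG (both 0.88) and PIEZO1 (0.87), and ERBB2 most like ITPK1 and PFKL (both 0.89) and QPRT (0.86). ERRFI1 ran most like GPAT3 (0.89), FEN1 (0.87) and EXOSC2 (0.86). No gene of the set was among the 3 most like another.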

How the data were processed

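Polyadenylated RNA of 786-O cells was sequenced from 26 libraries as paired ends of 42 bases, per the labels' protocols. Titles spelled SARPN and FIPB were read as SARNP and FIBP. The tools named, without version or role, in the submitters' processing notes are DESeq2, HTSeq, Picard and STAR, and the build is hg19. Annotation and strand setting are not given in the sources used here. The deposited values are a normalized signal; from the steps between them, each gene's read count had been divided by a size factor of its library. Entries that name no gene were kept out, 2 in each DDX39A and SARNP library and 3 in each library of the other targets. They held 29.83 to 30.47% of reads for SART1, 7.36 to 8.09% for DDX39A and SARNP, and 27.57 to 29.18% for FIBP and TMEM259. As the number of entries differs, these shares cannot be compared between tables. Over all libraries, reads in no feature made up 5.66 to 7.03% and ambiguous reads 1.33 to 1.65%. Whole reads were recovered from the steps between values (all gene values whole within 0.001 of a read). A stricter check, which takes the lowest value of a library as 1 read, accepted this for 12 of the 26 libraries, so tests on recovered reads are alternatives only. Libraries of a group differed by more than counting error (chi-square per degree of freedom 1.52 to 2.93).

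Genes with a mean of at least 10 in a table were tested (11823, 11673 and 11768 in the SART1, DDX39A and SARNP, and FIBP and TMEM259 tables). One limma 3.58.1 model per table (R 4.3.3; lmFit, contrasts.fit and eBayes with trend) with a mean per group was fitted to log2(value + 1), with 3, 5 and 5 residual and 20.5, 31.8 and 38.4 prior degrees of freedom in that order of tables, and p-values were Benjamini-Hochberg adjusted over all tested genes. The fit was tested on simulated data. Alternatives were DESeq2 1.42.0 and edgeR 4.0.16 (TMM) on recovered reads, quantile normalization, a pseudocount of 5, a minimum mean of 50 or none, only the groups compared, a replicate block, and each library left out. Text names the members, the knocked-down genes, the 3 genes most like each member (mean of at least 50 in every table, no clone-based names), and genes among the up to 2 per list and target called by both siRNAs with the largest smaller change. A gene of the adaptor list is not reported here. The members and lists were chosen with earlier results of these data known.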

Additional observations from a re-analysis of the deposited data

Results flagged for a closer look

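The siRNAs of 1 target moved 6 gene and target pairs in opposite directions, each call and the difference between the siRNAs passing the limma test. Of all tested genes, 13% were called in opposite directions with SARNP, 5.16% with DDX39A and 2.5% with FIBP. The direct difference between siRNAs passed for 64.1%, 50.6% and 35.7% of tested genes in that order. With SARNP, the log2 difference between siRNA 9 and siRNA 3 was 2.75 for HBEGF, -0.44 for ERBB2 and -0.30 for EGFR. With DDX39A, the difference between siRNA 4 and siRNA 1 was 0.86 for TGFA and -1.05 for EREG. With FIBP, ERRFI1 differed by 1.19 between siRNA 7 and siRNA 6. The single SARNP calls behind the EGFR and ERBB2 pairs lay between -0.25 and 0.18 on the log2 scale, and those of EGFR with both siRNAs and of ERBB2 with siRNA 3 were lost when 1 library was left out.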

How the results depend on the processing

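The number of the 6 genes called by both siRNAs of a target with the same sign was 4 for SART1, 1 for DDX39A, 1 for SARNP, 2 for FIBP and 2 for TMEM259. Under quantile normalization it became 5 for SART1, where EREG was lost and TGFA and EGFR were added, and 2 for SARNP, where ERRFI1 was added. It became 1 for FIBP and 1 for TMEM259 in DESeq2, and 1 for TMEM259 with a replicate block. Leaving out each library in turn gave 3 to 4 for SART1, 1 to 2 for DDX39A, 1 to 1 for SARNP, 1 to 2 for FIBP and 1 to 2 for TMEM259. Without DDX39A siRNA 1 replicate 1 DDX39A gave 2. FIBP gave 1 without control replicate 1, control replicate 2 or FIBP siRNA 6 replicate 2, and TMEM259 gave 1 without control replicate 1 or either replicate of TMEM259 siRNA 6. Called log2 changes and differences numbered 77: of their 616 values under settings other than leaving out a library, 603 kept direction and call, 12 kept direction only and 1 reversed, and of 710 values with a library left out, 681 kept both and 29 direction only. The reversed one was EREG with SART1 siRNA 6, at -0.04 under quantile normalization. Of 25 uncalled changes and differences, 191 of 200 values under the same settings kept direction and call, 6 passed the test and 3 reversed, and with a library left out 214 of 238 kept both, 6 passed and 18 reversed. Quantile normalization reversed EGFR (-0.02) and EREG (-0.0025) with TMEM259 siRNA 6, and EGFR between the DDX39A siRNAs (-0.02). Some changes not called with all libraries crossed 0 when libraries were left out in turn. These were EGFR with FIBP siRNA 6 (-0.01 to 0.02), TMEM259 siRNA 5 (-0.04 to 0.18) and TMEM259 siRNA 6 (-0.01 to 0.02), ERBB2 with TMEM259 siRNA 6 (-0.02 to 0.11), EREG with SARNP siRNA 3 (-0.01 to 0.14) and TMEM259 siRNA 6 (-0.01 to 0.04), ERRFI1 with DDX39A siRNA 1 (-0.09 to 0.03) and TGFA with TMEM259 siRNA 6 (-0.17 to 0.0004). So did uncalled differences between siRNAs for EGFR with DDX39A (-0.05 to 0.09) and TMEM259 (-0.17 to 0.04), ERBB2 with FIBP (-0.03 to 0.08) and SART1 (-0.08 to 0.03), HBEGF with DDX39A (-0.09 to 0.18) and TGFA with FIBP (-0.10 to 0.07). Single values within these ranges could pass the test. The cause of these changes was not tested. Over all tested genes, DESeq2 called fewer by both siRNAs, 3807 against 5071 for SART1, 1065 against 1756 for DDX39A, 1077 against 1672 for SARNP, 599 against 1068 for FIBP and 293 against 585 for TMEM259. For FIBP that count was 677 without control replicate 1 and 711 without control replicate 2, and for TMEM259 it was 279 without control replicate 1, 381 without control replicate 2 and 370 without TMEM259 siRNA 6 replicate 1. Same-numbered libraries did not deviate together (correlations of -0.12 to 0.09 between groups), so no shared replicate effect was seen. These correlations do not tell whether same-numbered libraries were prepared together. With 2 libraries per group, a fit without 1 of them assumes that the lone library varies like the other groups.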
